A study of Mus musculus with 8 samples.

Results

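The libraries described here are the 4 of 8 in the series that come from control NMuMG cells, an epithelial line from the normal mouse mammary gland. They were chosen by their labels, 2 untreated libraries and 2 from cells given TGF-β1 at 10 ng/mL for 2 h, each a numbered replicate grown in medium with serum and insulin. The other 4 libraries are labelled as knockout of the long noncoding RNA *Gm13507* (Lnc-Nr6a1) and serve here to estimate the spread between replicates and to compare the response. The labels give an acid and albumin diluent for the cytokine and do not say whether untreated cells received it, nor whether the control cells are a clone. The question is which genes control cells change within 2 h of TGF-β, sorted by what they do.

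TGF-β binds a pair of serine/threonine kinase receptors, which phosphorylate the SMAD2 and SMAD3 proteins that then enter the nucleus with SMAD4. Among the first genes this complex acts on are inhibitors of the pathway itself. In mammary epithelial cells the cytokine slows division and, over days, loosens cell junctions and gives the cells mesenchymal features, a process known as the epithelial-mesenchymal transition (EMT).

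Reads counted on genes came to 7871090 and 7800602 in the untreated libraries and 11210495 and 9895118 in the treated ones. Levels are CPM, counts relative to the library total after edgeR's TMM scaling, and values are given below in the order library 1, library 2. A gene with 3 counts, taken as the floor, stood at 0.362 and 0.366 CPM in the untreated and 0.281 and 0.317 CPM in the treated libraries, which covers counting error only. Of 37310 genes in the file, 13028 had enough counts to be tested with edgeR's quasi-likelihood test, and "edgeR adjusted p" below means its p after Benjamini-Hochberg adjustment over these genes. Calls of higher or lower needed an adjusted p under 0.05 together with a log2 fold change beyond 0.5 in size, and SE is the standard error of that fold change. All 37 genes of the mitochondrial DNA were at 0 counts in these libraries.

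The line's epithelial label was checked on 7 lists of cell type markers. *Krt8* stood at 2302 and 2126 CPM untreated and 3963 and 2990.2 CPM treated, and *Cdh1*, the gene of E-cadherin, at 193 and 267 CPM untreated and 238 and 242 CPM treated. Of the other epithelial markers *Krt18* was abundant and *Cldn4* had 1 and 0 counts untreated and 126 and 13 treated. *Epcam* had 2 counts in treated library 1 and 0 in the other 3, and *Cldn3*, *Cldn7* and *Esrp1* had 0 in all 4. Of the luminal markers, *Krt19* was abundant as well, whereas *Elf5*, *Prlr*, *Csn2*, *Wap* and *Lalba* had 0 counts. The basal markers summed to 5.91 and 4.88 CPM untreated and to 24.0 and 25.7 CPM treated, nearly all of it *Krt14*, with *Cnn1* at 0 and *Krt5*, *Trp63* and *Acta2* at 2 counts or fewer. Fibroblast markers summed to 0.965 and 1.95 CPM untreated and 2.72 and 4.44 CPM treated, endothelial markers to 0.362, 0, 0.562 and 0.847 CPM, and the 5 adipocyte markers had 0 counts. Leukocyte markers summed to 106 and 99.6 CPM untreated and 165 and 126 CPM treated, almost wholly *Cd14*, while *Cd3e* was at 0 and *Ptprc* at 2 counts or fewer. These markers were followed as levels, and their part in the results was not tested.

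After TGF-β, 611 genes were called higher (4.69% of the 13028 tested) and 583 lower (4.47%), 1194 in all (9.16%). The median log2 fold change was 0.95 among genes called higher and -1.04 among those called lower, against 0.02 over all genes tested. Of the genes called higher, 290 rose by more than 1 on the log2 scale and 80 by more than 2, while 308 of those called lower fell by more than 1 and 75 by more than 2. In all 1194 called genes the treated libraries lay wholly above or wholly below the untreated ones, as they did in 53.7% of all tested genes. The genes called higher together made up 70698 CPM before and 133627 CPM after treatment. Those called lower went from 45775 to 22737 CPM.

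These counts rest on few libraries. When only 1 library stands for a group, the test assumes that it varies like the other groups. With untreated library 1 left out, 87 genes were called higher and 58 lower, and without untreated library 2, 159 and 155. Without treated library 1, 658 were called higher and 826 lower, and without treated library 2, 583 and 388. Leaving out an untreated library labelled knockout gave 334 higher and 283 or 278 lower. Not 1 of the 1194 called genes changed sign in any of these fits. Their treated and untreated libraries lay wholly apart, so leaving 1 out could hardly reverse a sign, and this adds no support. The shares over all genes, 4.69% higher and 4.47% lower, are the background for each list count below, and no list was tested as a set.

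Of 154 called genes named in the text, 95 were not called without untreated library 1, 69 without untreated library 2, 29 without treated library 1 and 26 without treated library 2. With the 4 control libraries alone 41 were not called. A total of 56 kept their call in each of the 14 settings computed for single genes. Those called higher were *2310007B03Rik*, *Acvr1*, *Aff4*, *Bhlhe40*, *Bmf*, *Cdh6*, *Col15a1*, *Ctgf*, *Dyrk3*, *Egfr*, *Ets1*, *Foxq1*, *Gadd45b*, *Igfbp7*, *Itgb6*, *Jmjd1c*, *Krt14*, *Lgr6*, *Lmcd1*, *Nedd9*, *Nfil3*, *Nt5e*, *Olr1*, *Pdgfa*, *Plin2*, *Ski*, *Skil*, *Slc7a6*, *Snai1*, *Spp1*, *Spsb1*, *Tgfbr1*, *Timp3*, *Tnfaip6* and *Wisp1*. Those called lower were *Bcl9l*, *Bmp4*, *E2f2*, *Foxa2*, *Gm15487*, *Hes1*, *Irs1*, *Klf3*, *Neat1*, *Neurl1b*, *Notch1*, *Ppl*, *Scamp3*, *Sesn2*, *Slc26a2*, *Spry1*, *Srebf1*, *Tenc1*, *Tnxb*, *Txn2* and *Wnk4*. Every other call of a named gene below was lost in at least 1 of these settings. The treated libraries differed from each other by a median absolute log2 CPM of 0.33, the untreated ones by 0.21, and treated library 1 stood apart in inflammatory and immediate-early genes, as given with those groups.

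**Figure D1:**
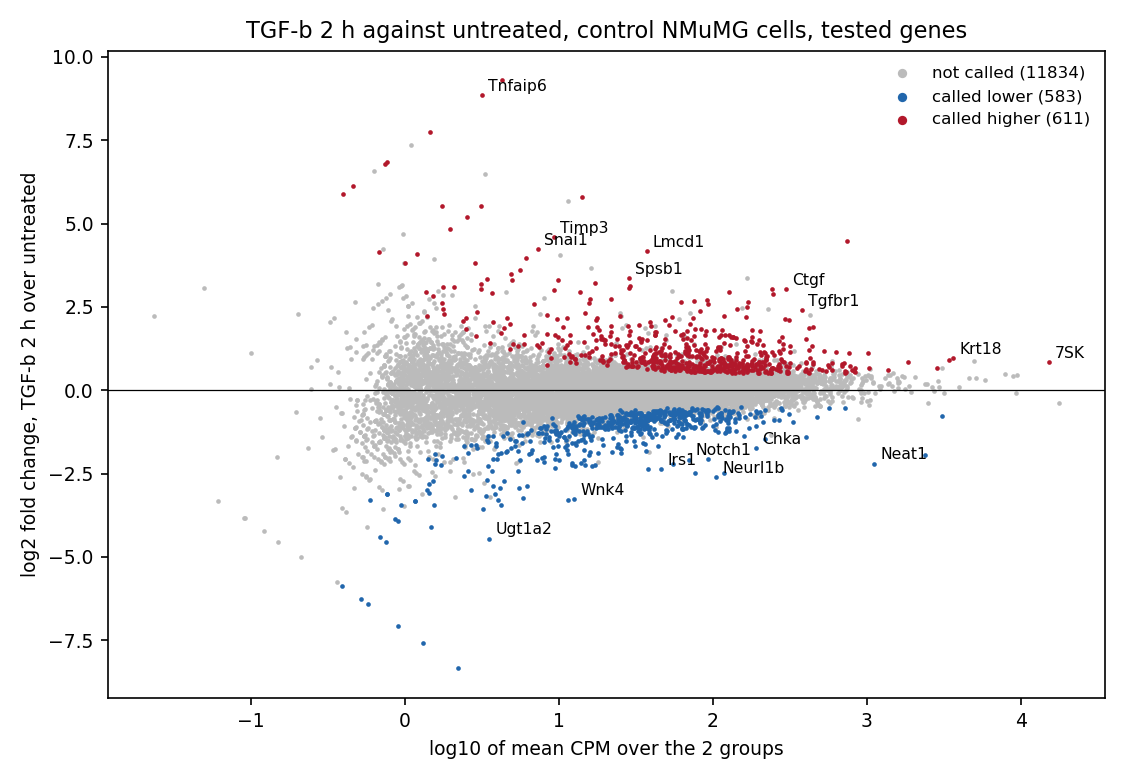
Log2 fold change (TGF-β 2 h over untreated, vertical axis) against the log10 of the mean CPM (horizontal axis) for the 13028 tested genes of control cells, a point a gene. The 611 genes called higher are red and the 583 called lower are blue, and *Neat1* combines a high level with a log2 fold change of -2.20.

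The pathway's own feedback genes were among the clearest changes. Of 16 tested genes of negative feedback on TGF-β signalling, 10 were called higher and 0 lower, with a median log2 fold change of 1.01, beside 4.69% and 0.02 over all genes. *Spsb1*, whose SOCS-box protein lowers receptor levels, went from 5.07 and 5 CPM to 61.7 and 42.8 CPM, a log2 fold change of 3.37 (SE 0.27, edgeR adjusted p = 4.97e-04). Both treated libraries were above both untreated ones, as in every gene called higher. *Skil*, which encodes the SMAD co-repressor SnoN, rose from 100.4 and 137 to 528 and 487 CPM (log2 fold change 2.09, SE 0.18, edgeR adjusted p = 5.07e-04), and its relative *Ski* from 69.1 and 60.1 to 183 and 161 CPM (log2 fold change 1.41, SE 0.15, edgeR adjusted p = 9.33e-04). The inhibitory SMAD gene *Smad7* was at 27.6 and 33.6 CPM untreated and at 129.8 and 67 CPM treated (log2 fold change 1.69, SE 0.32, edgeR adjusted p = 0.0151), with treated library 1 the higher. *D18Ertd653e*, now named Ldlrad4, whose membrane protein holds back SMAD activation, and *Nedd9*, a scaffold protein of focal adhesions, were also called higher. Members not called included *Smurf1*, a ubiquitin ligase, at 110.2 and 89.5 CPM untreated and 179 and 137 CPM treated. The co-repressor gene *Tgif1*, at 67.5 and 90.9 CPM untreated and 208 and 112 CPM treated, was not called either. *Tgif1* was called higher with DESeq2, among other settings, and both genes were with no filter on low counts. Leaving out 1 library at a time gave from 5 without untreated library 1 to 11 without treated library 2 members called higher.

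Among 9 tested receptor genes 3 were called higher and 0 lower. *Tgfbr1*, the type I receptor that passes the TGF-β signal on, stood at 101 and 140.1 CPM untreated and 527 and 753 CPM treated, a log2 fold change of 2.41 (SE 0.25, edgeR adjusted p = 9.52e-04). *Acvr1*, the activin and BMP type I receptor ALK2, went from 23.5 and 30.1 to 149 and 131 CPM (log2 fold change 2.38, SE 0.20, edgeR adjusted p = 5.07e-04), and the BMP type II receptor gene *Bmpr2* from 49.7 and 59.2 to 103 and 132 CPM (log2 fold change 1.11, SE 0.17, edgeR adjusted p = 0.00505). In each of these genes both treated libraries were above both untreated ones, as in every gene called higher. Groups lay apart in 53.7% of all tested genes. The type II receptor gene *Tgfbr2*, to which TGF-β itself binds, was at 164 and 187 CPM untreated and 172 and 137 CPM treated, overlapping, and its log2 fold change was -0.19 (SE 0.17, edgeR adjusted p = 0.521). Per kilobase of exon, *Tgfbr1* averaged 18.4 CPM untreated and 98 CPM treated, and *Tgfbr2* 21.7 and 19.1 CPM, so the mean of *Tgfbr1* was below that of *Tgfbr2* before treatment and above it after. In the fit that lacked untreated library 1, 2 receptor genes were called higher, and without treated library 1, 4.

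Ligand genes had calls of lower alone: of 11 tested genes of the ligand family and its processing, 0 were called higher and 2 lower. *Bmp4* fell from 17.6 and 22.7 to 3.47 and 4.97 CPM (log2 fold change -2.26, SE 0.30, edgeR adjusted p = 0.00304) and the stress cytokine gene *Gdf15* from 8.44 and 6.96 to 0.937 and 1.38 CPM (log2 fold change -2.73, SE 0.40, edgeR adjusted p = 0.00466). The gene of the ligand given, *Tgfb1*, was at 21.1 and 16.2 CPM untreated and 19.2 and 12.8 CPM treated and was not called. Of 10 tested SMADs and partners, 2 were called higher and 0 lower, *Smad3* (137 and 145 to 277 and 214 CPM, log2 fold change 0.80, SE 0.19, edgeR adjusted p = 0.0341) and *Trim33* (131 and 177 to 252 and 300.3 CPM, log2 fold change 0.84, SE 0.17, edgeR adjusted p = 0.0209), a ubiquitin ligase that binds SMADs. Neither of them was called without untreated library 1. In the 7 tested genes of latent TGF-β binding and activation, 2 were called higher and 0 lower, both genes of activators that free the cytokine from its latent complex. *Itgb6*, the integrin β6 subunit, went from 49.3 and 68.2 CPM to 453 and 409 CPM (log2 fold change 2.87, SE 0.22, edgeR adjusted p = 4.16e-04), and *Thbs1*, thrombospondin 1, from 69.6 and 99.7 to 237 and 238 CPM (log2 fold change 1.49, SE 0.26, edgeR adjusted p = 0.0101). Without untreated library 1, 1 of these genes was called.

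Id proteins bind and block the E-protein transcription factors and are classical targets of BMP signalling. Of 6 tested genes of Id proteins and E proteins, 2 were called lower and 0 higher. *Id1* was at 119 and 102 CPM untreated and 76.2 and 65.2 CPM treated (log2 fold change -0.65, SE 0.17, edgeR adjusted p = 0.048), and *Id3* at 54.2 and 34.3 CPM untreated and 26.1 and 15.1 CPM treated (log2 fold change -1.10, SE 0.29, edgeR adjusted p = 0.048). *Id2* was at 149.6 and 182 CPM untreated and 148 and 103 CPM treated and was not called, although its treated libraries were both the lower. With untreated library 1 left out, 0 genes of this list were called.

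Genes of the matrix outside the cell held several of the largest changes. *Plau*, the gene of the protease urokinase, rose from 13.63 and 17.1 to 75.9 and 49.7 CPM (log2 fold change 2.03, SE 0.36, edgeR adjusted p = 0.011). Of the tissue inhibitors of metalloproteinases, *Timp3* went from 0.844 and 0.61 to 21.4 and 14.3 CPM (log2 fold change 4.59, SE 0.52, edgeR adjusted p = 0.0023) and *Timp1* from 43.5 and 40.3 to 97.4 and 85.2 CPM (log2 fold change 1.12, SE 0.18, edgeR adjusted p = 0.00657). *Timp2* was at 748 and 731 CPM untreated and 835 and 639 CPM treated and was not called. *Mmp15*, a membrane metalloproteinase gene, fell from 7.84 and 7.69 to 4.4 and 3.49 CPM (log2 fold change -0.97, SE 0.24, edgeR adjusted p = 0.0356). In all, 4 of the 24 tested genes of the plasminogen system and metalloproteinases were called higher and 1 lower. The urokinase receptor gene *Plaur* was not called, at 131 and 109.9 CPM untreated and 376 and 133 CPM treated, the latter far apart. With libraries left out singly, the number called higher in this list went from 2 without untreated library 1 to 6 without treated library 2.

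Matricellular proteins are secreted into the matrix and act on cells rather than as scaffold. Of 26 tested matricellular and matrix-crosslinking genes, 11 were called higher and 0 lower, with a median log2 fold change of 0.67. *Ctgf*, connective tissue growth factor, went from 56.5 and 74.2 to 629.7 and 438 CPM (log2 fold change 3.03, SE 0.29, edgeR adjusted p = 7.98e-04). Its CCN family relatives *Cyr61* (42.2 and 42.2 to 223 and 168 CPM, log2 fold change 2.21, SE 0.47, edgeR adjusted p = 0.0226) and *Wisp1* (89.9 and 129 to 482 and 482 CPM, log2 fold change 2.14, SE 0.20, edgeR adjusted p = 6.43e-04) rose with it. *Has2*, a hyaluronan synthase, had 0 counts in both untreated libraries and 27 and 31 counts in the treated ones, at least 7.98-fold higher (edgeR adjusted p = 0.0135). *Tnfaip6*, whose product links proteins to hyaluronan, likewise had 0 untreated counts and 49 and 76 after TGF-β, at least 17.4-fold higher (edgeR adjusted p = 0.00366). The fibronectin gene *Fn1* went from 48.4 and 63.8 to 136 and 115 CPM (log2 fold change 1.16, SE 0.28, edgeR adjusted p = 0.0332) and osteopontin, *Spp1*, from 2284 and 2499 to 4595 and 4369 CPM (log2 fold change 0.91, SE 0.12, edgeR adjusted p = 0.00308). Leaving out single libraries changed the number called higher in this group, from 4 without untreated library 1 to 12 without treated library 2.

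Laminins form the sheet under epithelia, and of 12 tested laminin and basement membrane genes, 4 were called higher and 2 lower. *Lamb3*, a β subunit, went from 275 and 305 to 577 and 470.1 CPM (log2 fold change 0.85, SE 0.15, edgeR adjusted p = 0.01). *Lama3* had 0 and 1 counts untreated and 38 and 31 treated (edgeR adjusted p = 0.0292), and was not called without either untreated library. *Lamb1* rose from 22.7 and 23.7 to 55.4 and 44.7 CPM (log2 fold change 1.11, SE 0.22, edgeR adjusted p = 0.0181). By contrast *Lama5* fell from 448 and 428 to 269 and 182 CPM (log2 fold change -0.96, SE 0.23, edgeR adjusted p = 0.0329) and *Lamb2* from 98.1 and 103 to 68.8 and 57.5 CPM (log2 fold change -0.67, SE 0.18, edgeR adjusted p = 0.049). Of 15 tested collagens 2 were called higher and 0 lower by edgeR, where DESeq2 called 4 higher and 2 lower. *Col7a1*, the anchoring fibril collagen, rose from 7.6 and 5.13 to 20.1 and 12.2 CPM (log2 fold change 1.34, SE 0.32, edgeR adjusted p = 0.0339). The other was *Col15a1* (2.77 and 3.05 to 13.59 and 14.3 CPM, log2 fold change 2.25, SE 0.23, edgeR adjusted p = 9.33e-04). Neither of the laminin genes called lower was called without either untreated control library, without treated library 2 or without either untreated library labelled knockout. The number of laminin genes called higher went from 1 without untreated library 1 to 4 without treated library 1, and of collagens from 1 without untreated library 1 to 3 without treated library 2.

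Integrins tie the cell to that matrix. Of 14 tested subunits, 5 were called higher and 1 lower, with a median log2 fold change of 0.55. Besides *Itgb6*, the collagen receptor subunit *Itga2* went from 38.7 and 51.3 to 301 and 187 CPM (log2 fold change 2.44, SE 0.41, edgeR adjusted p = 0.00871) and *Itgb5* from 79.5 and 74.6 to 156 and 142 CPM (log2 fold change 0.95, SE 0.14, edgeR adjusted p = 0.00429). *Itgb1*, the shared β1 subunit, went from 486 and 559 to 768 and 949 CPM (log2 fold change 0.72, SE 0.14, edgeR adjusted p = 0.0187). The *Itgb7* subunit fell, from 204 and 154 to 75.8 and 76.7 CPM (log2 fold change -1.23, SE 0.20, edgeR adjusted p = 0.00738). *Itgb4* and *Itga3* were not called. With each library left out in turn, subunits called higher went from 1 without untreated library 1 to 6 without treated library 1.

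Of 42 tested genes of the actin cytoskeleton and focal adhesions, 6 were called higher and 2 lower. The tropomyosin gene *Tpm1* went from 684 and 679.8 to 1033 and 969 CPM (log2 fold change 0.55, SE 0.14, edgeR adjusted p = 0.0413) and caldesmon, *Cald1*, from 317 and 347 to 478 and 665 CPM (log2 fold change 0.78, SE 0.16, edgeR adjusted p = 0.0222). *Tpm1* was not called with any of the 4 control libraries left out, nor *Cald1* without either untreated library or treated library 2. The LIM protein gene *Pdlim7* went from 52.2 and 45.9 to 164 and 92 CPM (log2 fold change 1.39, SE 0.33, edgeR adjusted p = 0.0328). *Actb* was at 5747 and 4843 CPM untreated and 7755 and 5199.9 CPM treated and was not called. In the fit that lacked untreated library 1, 1 gene of this list was called higher.

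Genes that respond to the co-activator YAP and its TEAD partners included the CCN genes above: of 29 tested, 8 were called higher and 0 lower. *F3*, tissue factor, which starts blood clotting, was at 43.7 and 50.4 CPM untreated and 381 and 207 CPM treated (log2 fold change 2.64, SE 0.59, edgeR adjusted p = 0.0274). *Nt5e*, the surface enzyme CD73 that makes adenosine, went from 4.95 and 6.96 to 42 and 62.3 CPM (log2 fold change 3.13, SE 0.27, edgeR adjusted p = 5.07e-04), and *Vgll4*, an inhibitor of TEAD factors, from 48.1 and 37.1 to 109 and 86 CPM (log2 fold change 1.19, SE 0.18, edgeR adjusted p = 0.00577). *Ankrd1*, a much-used YAP reporter, was not called, at 120.3 and 176 CPM untreated and 317 and 234 CPM treated. Single libraries left out moved the list's number called higher from 2 without untreated library 2 to 8 without treated knockout-labelled library 2.

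**Figure D2:**
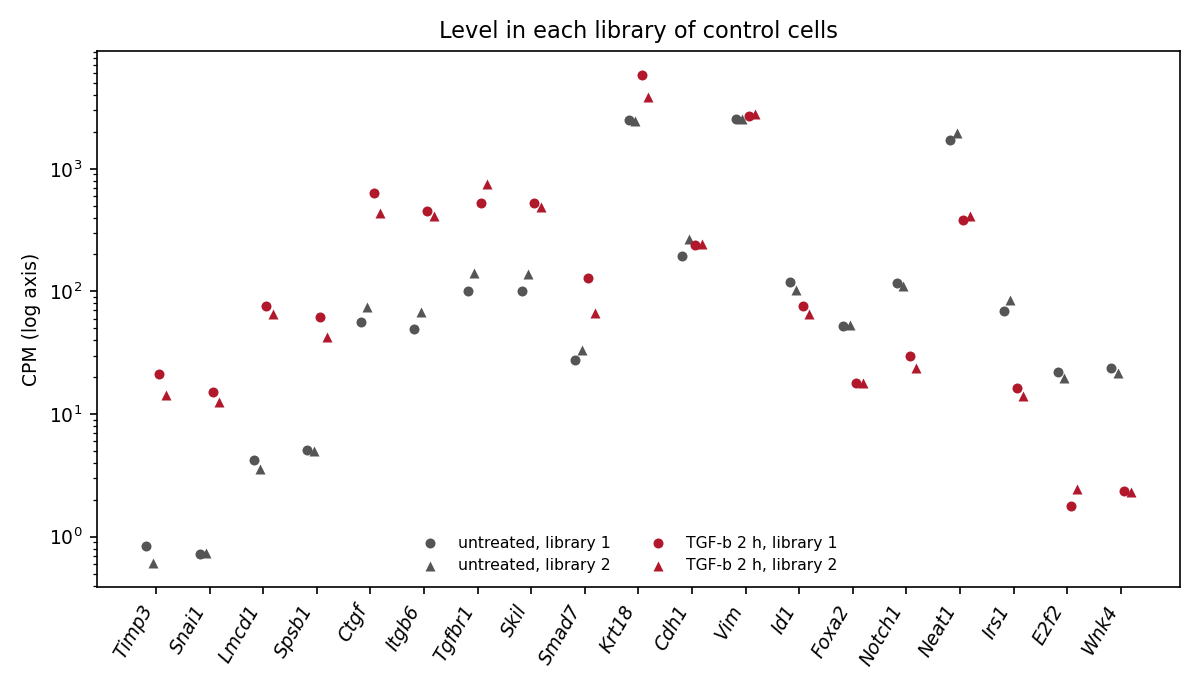
CPM on a log axis of 19 named genes in each of the 4 control libraries, a point a library, untreated in grey and TGF-β 2 h in red. Untreated and treated points are apart for every gene except *Cdh1*, and for *Vim* they lie within a narrow range.

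Transcription factors that drive EMT were among the genes called. Of 14 tested, 8 were called higher and 0 lower, with a median log2 fold change of 0.88. *Snai1*, which encodes Snail, the repressor of E-cadherin, was at 0.724 and 0.732 CPM untreated and 15.3 and 12.5 CPM treated (log2 fold change 4.23, SE 0.32, edgeR adjusted p = 4.16e-04). *Runx1* went from 25.9 and 31.1 to 142 and 83.7 CPM (log2 fold change 1.99, SE 0.31, edgeR adjusted p = 0.00641), *Sox4* from 98.5 and 108 to 361 and 229 CPM (log2 fold change 1.51, SE 0.21, edgeR adjusted p = 0.00335) and *Ets1* from 155 and 132 to 429 and 363 CPM (log2 fold change 1.46, SE 0.17, edgeR adjusted p = 0.00161). *Hmga2*, a chromatin protein that helps switch on Snail, rose from 145 and 152 to 382 and 221 CPM (log2 fold change 1.03, SE 0.27, edgeR adjusted p = 0.0459), but was not called without either untreated library, nor without treated library 1. *Twist2* was at 11.7 and 8.91 CPM untreated and 9.09 and 2.22 CPM treated and was not called. Without untreated library 1, 2 of these factors were called higher, and without untreated library 2, 4. Treated library 1 left out gave 7 higher and 2 lower, *Twist2* among the latter, with a median of 0.56, and treated library 2 left out gave 8 and 1.

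Of 8 tested transcription and splicing factors of epithelial identity, 2 were called lower and 0 higher. *Foxa2* was at 52.7 and 53.5 CPM untreated and 17.9 and 17.8 CPM treated (log2 fold change -1.57, SE 0.17, edgeR adjusted p = 0.00116), and *Klf5* at 44.4 and 42.6 CPM untreated and 22.3 and 22.5 CPM treated (log2 fold change -0.96, SE 0.21, edgeR adjusted p = 0.0275). Among other forkhead genes *Foxq1* (14.8 and 12.6 to 60.4 and 45.3 CPM, log2 fold change 1.95, SE 0.23, edgeR adjusted p = 0.00173) and *Foxf2* (21.7 and 14.4 to 54.3 and 36 CPM, log2 fold change 1.32, SE 0.26, edgeR adjusted p = 0.0167) rose, while *Foxk1* fell, and 2 of 21 tested forkhead genes were called higher and 3 lower. Of 11 tested Krüppel-like factors, 3 were called higher and 2 lower. *Klf10*, first described as an early gene of TGF-β, went from 58.7 and 61.9 to 115 and 127 CPM (log2 fold change 1.00, SE 0.16, edgeR adjusted p = 0.00599) and *Klf6* from 141 and 183 to 401 and 278 CPM (log2 fold change 1.07, SE 0.25, edgeR adjusted p = 0.0317), whereas *Klf3* fell from 55.5 and 66.5 to 23.1 and 25.6 CPM (log2 fold change -1.33, SE 0.16, edgeR adjusted p = 0.0023). With untreated library 1 left out, 1 factor of epithelial identity was called lower and 0 Krüppel-like factors were called higher.

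Structural markers of EMT had mostly not passed the test at 2 h. Of 8 tested mesenchymal markers, 1 was called higher, *Fn1*, and 0 lower. *Vim*, vimentin, was at 2566 and 2526 CPM untreated and 2669.8 and 2799 CPM treated, and its log2 fold change was 0.10 (SE 0.11, edgeR adjusted p = 0.604). For *Cdh1* the log2 fold change was 0.06 (SE 0.17, edgeR adjusted p = 0.853), and its groups overlapped. Of 19 tested genes of adherens junctions and desmosomes, 3 were called higher and 1 lower. *Ppl*, periplakin, fell from 194 and 204 to 83.9 and 87.1 CPM (log2 fold change -1.22, SE 0.15, edgeR adjusted p = 0.00227), whereas the plakophilin gene *Pkp1* rose from 19.4 and 19.9 to 53.4 and 39.9 CPM (log2 fold change 1.25, SE 0.29, edgeR adjusted p = 0.0293) and p120 catenin, *Ctnnd1*, from 525 and 627 to 824 and 905 CPM (log2 fold change 0.59, SE 0.13, edgeR adjusted p = 0.0295). In the fit that lacked untreated library 1, neither *Fn1* nor any of these junction genes was called higher.

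Tight junction and polarity genes had 5 of 21 tested called lower and 2 higher, beside 4.47% and 4.69% over all genes. *Tjp3*, the junction scaffold ZO-3, was at 2.17 and 3.05 CPM untreated and 0.469 and 0.635 CPM treated (log2 fold change -2.22, SE 0.49, edgeR adjusted p = 0.0254). The polarity gene *Crb3* went from 16.4 and 8.91 to 4.78 and 1.27 CPM (log2 fold change -2.04, SE 0.51, edgeR adjusted p = 0.0392), *Llgl2* from 77 and 58.1 to 31.6 and 20.8 CPM (log2 fold change -1.36, SE 0.24, edgeR adjusted p = 0.0103) and cingulin, *Cgn*, from 66 and 56.9 to 40.2 and 29.4 CPM (log2 fold change -0.82, SE 0.21, edgeR adjusted p = 0.0446). The junctional adhesion molecule *F11r* rose from 186 and 189 to 292 and 284 CPM (log2 fold change 0.62, SE 0.13, edgeR adjusted p = 0.0228). *Cldn4* had 1 and 0 counts untreated and 126 and 13 treated and was not called (edgeR adjusted p = 0.0528). It was called higher in some settings, DESeq2 and no filter on low counts among them. Among the 5 genes called lower, 0 were so without untreated library 1.

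Keratins build the filaments of epithelial cells, and 5 of 10 tested were called higher and 1 lower. *Krt18* went from 2488 and 2466 to 5797 and 3854 CPM (log2 fold change 0.96, SE 0.22, edgeR adjusted p = 0.0295) and its partner *Krt8* from 2302 and 2126 to 3963 and 2990.2 CPM (log2 fold change 0.65, SE 0.17, edgeR adjusted p = 0.0472), with treated library 1 the higher in both. *Krt14*, a keratin of basal cells, rose from 5.19 and 4.64 to 23.8 and 25.7 CPM (log2 fold change 2.33, SE 0.31, edgeR adjusted p = 0.00304) and *Krt16*, a keratin of wounded skin, from 0.724 and 1.1 to 12.1 and 6.14 CPM (log2 fold change 3.31, SE 0.65, edgeR adjusted p = 0.0171). *Krt6a* fell from 17 and 16.4 to 9.37 and 7.73 CPM (log2 fold change -0.96, SE 0.22, edgeR adjusted p = 0.0274). Summed over the list, keratins made up 5836 and 5681 CPM untreated and 10834 and 7919 CPM treated. The number called higher went from 1 without untreated library 1 to 5 without treated library 2.

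AP-1 is a dimer of Fos and Jun proteins that many growth signals switch on within an hour. Of 12 tested AP-1 genes, 3 were called higher and 0 lower: *Fosl2* (63.3 and 72.1 to 239 and 172 CPM, log2 fold change 1.60, SE 0.21, edgeR adjusted p = 0.00307), *Junb* (137 and 144 to 589 and 259 CPM, log2 fold change 1.59, SE 0.34, edgeR adjusted p = 0.0234) and *Jdp2* (27.3 and 27 to 72.2 and 44.1 CPM, log2 fold change 1.10, SE 0.27, edgeR adjusted p = 0.0343). *Fosl1* was split, at 51 and 49.9 CPM untreated and at 91.3 and 18.5 CPM treated, so that one treated library was above and the other below both untreated ones. The list summed to 551 and 519 CPM untreated and to 1509 and 707 CPM treated. Its number called higher went from 0 without untreated library 1 to 6 without treated knockout-labelled library 1. *Egr1*, an immediate-early factor that peaks within an hour of stimulation, had fallen from 3.14 and 10.7 to 0.75 and 0.847 CPM (log2 fold change -3.10, SE 0.67, edgeR adjusted p = 0.0238), and *Nab2*, which encodes its co-repressor, from 23.4 and 17.1 to 9.46 and 7.73 CPM (log2 fold change -1.23, SE 0.33, edgeR adjusted p = 0.047). These were the only genes called by edgeR among 20 tested of the SRF and Egr group, with 0 higher. DESeq2 called 2 higher and 3 lower in this group. Neither *Egr1* nor *Nab2* was called without untreated library 2, nor without either treated library.

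In inflammatory genes treated library 1 stood apart from treated library 2. Of 20 tested genes of NF-κB subunits and feedback, 0 were called in either direction by edgeR at the adjusted p, where DESeq2 and the fit of the 4 control libraries called 1 and edgeR with no filter on low counts 8. Their summed level was 735 and 655 CPM untreated and 1698 and 860 CPM treated. *Tnfaip3*, whose product A20 shuts NF-κB signalling off, was at 27.1 and 32.2 CPM untreated and 449.6 and 156 CPM treated, and its log2 fold change was 3.35 (SE 0.91, edgeR adjusted p = 0.0508). It did not pass there, but was called with DESeq2, with the 4 control libraries only and without treated library 2. Of 23 tested cytokines, chemokines and genes of prostaglandin synthesis, 1 was called higher, the chemokine gene *Ccl9* (9.05 and 15.1 to 32.4 and 30.9 CPM, log2 fold change 1.39, SE 0.24, edgeR adjusted p = 0.01), and 1 lower, *Tnfsf9* (6.75 and 8.3 to 2.16 and 2.33 CPM, log2 fold change -1.74, SE 0.38, edgeR adjusted p = 0.0246). *Ptgs2*, cyclooxygenase-2, was at 73.7 and 70.2 CPM untreated and 671 and 107 CPM treated. *Ccl2*, a monocyte chemokine, was at 160.3 and 139 CPM untreated and 1051 and 367 CPM treated. Neither was called, and in both genes the treated libraries lay several-fold apart. *Ccl2* was called with the 4 control libraries only, and both were called with no filter on low counts and without either treated library labelled knockout. *Tnfsf9* was not called with any of the 4 control libraries left out, nor *Ccl9* without untreated library 1. The number of cytokine genes called higher was 9 with no filter on low counts. The group summed to 816 and 823 CPM untreated and 2924 and 1024 CPM treated, and without treated library 1 its median log2 fold change was -0.08, against 0.37 with all libraries and 0.57 without treated library 2.

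**Figure D3:**
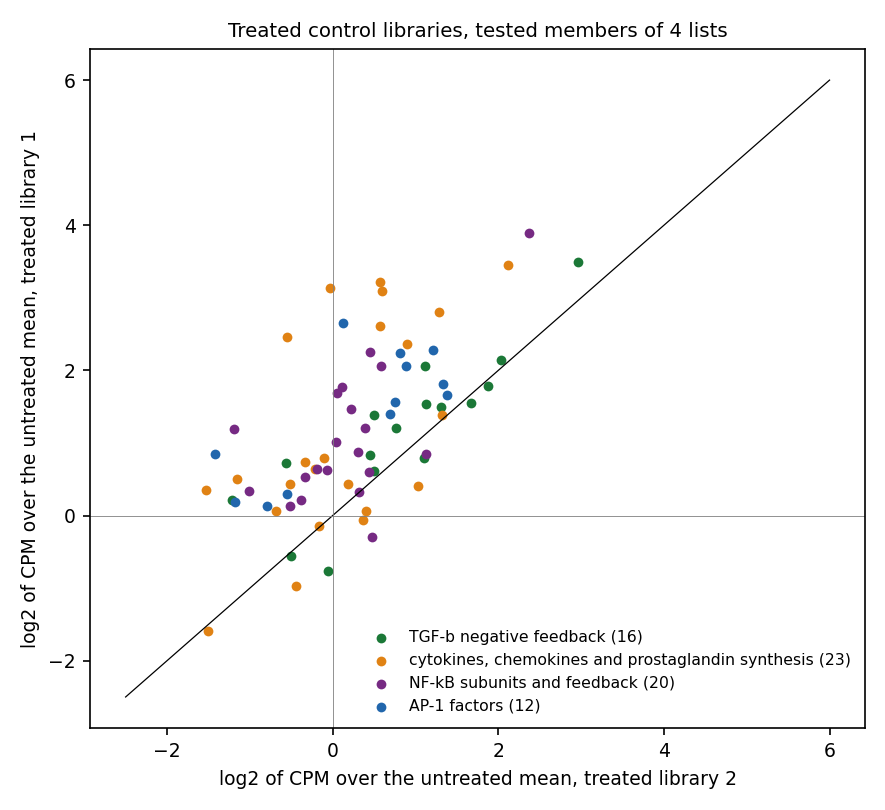
Log2 of the CPM in treated library 1 (vertical axis) and treated library 2 (horizontal axis) over the mean of the untreated libraries, with 0.5 CPM added to each, for the tested members of 4 gene lists, a point a gene. All AP-1 points and most points of the cytokine and NF-κB lists lie above the line of equal change, and feedback genes of TGF-β signalling lie on both sides of it.

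Among interferon-responsive genes, of 17 tested, 1 was called higher, *B2m*, the light chain of MHC class I (107 and 110.3 to 194 and 215 CPM, log2 fold change 0.91, SE 0.13, edgeR adjusted p = 0.00425), and 1 lower, *Mx2*, which went from 12 and 10 counts to 0 and 1 (edgeR adjusted p = 0.0364). *Mx2* was not called with DESeq2, nor with any of the 4 control libraries left out, and *B2m* was not called without untreated library 1.

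Genes of signalling between cells were called in several families. *Egfr*, the EGF receptor gene, went from 92.9 and 121 to 264 and 295 CPM (log2 fold change 1.38, SE 0.17, edgeR adjusted p = 0.00203) and was the only called gene of 10 tested ErbB receptors and EGF-family ligands. *Ereg*, epiregulin, was at 60.4 and 71.6 CPM untreated and 255 and 69.1 CPM treated and was not called. *Pdgfa* rose from 26.8 and 22.7 to 206 and 115 CPM (log2 fold change 2.70, SE 0.34, edgeR adjusted p = 0.00248) and *Igfbp7*, which binds insulin-like growth factors, from 168 and 171 to 380.1 and 423 CPM (log2 fold change 1.24, SE 0.15, edgeR adjusted p = 0.00231), while *Vegfb* fell from 26.1 and 18.2 to 7.22 and 7.73 CPM (log2 fold change -1.57, SE 0.24, edgeR adjusted p = 0.00566). They were the only called genes of 26 tested growth factors and receptor tyrosine kinases outside the ErbB family. That list had 6 genes called higher without treated library 2, and *Vegfb* was not called without untreated library 1. *Irs1*, the docking protein of insulin and IGF receptors, fell from 69.7 and 85.7 to 16.2 and 14.1 CPM (log2 fold change -2.36, SE 0.20, edgeR adjusted p = 5.07e-04).

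Of 16 tested genes of MAP kinase feedback 2 were called higher and 1 lower, with a median log2 fold change of 0.56 that was 0.02 without treated library 1. The phosphatase genes *Dusp10* (22.4 and 28.8 to 111 and 65.9 CPM, log2 fold change 1.78, SE 0.28, edgeR adjusted p = 0.00618) and *Dusp16* (32.3 and 43.2 to 118 and 95.4 CPM, log2 fold change 1.5, SE 0.32, edgeR adjusted p = 0.024) act on the stress kinases JNK and p38. *Spry1*, an inhibitor of growth factor signalling to ERK, fell from 14.5 and 17.2 to 2.53 and 3.7 CPM (log2 fold change -2.35, SE 0.31, edgeR adjusted p = 0.00306). *Dusp6*, a phosphatase of ERK, was not called, at 65.4 and 84.6 CPM untreated and 101 and 30.1 CPM treated. Without untreated library 1, 0 genes of the list were called higher.

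Of 21 tested Notch pathway genes 2 were called higher and 2 lower. *Jag1* went from 52.1 and 66.5 to 329.7 and 209 CPM (log2 fold change 2.18, SE 0.29, edgeR adjusted p = 0.00304) and *Notch1* from 116 and 111 to 29.7 and 23.8 CPM (log2 fold change -2.08, SE 0.18, edgeR adjusted p = 5.07e-04). The Notch target *Hes1* fell from 35.7 and 39.5 to 15.7 and 17.2 CPM (log2 fold change -1.19, SE 0.17, edgeR adjusted p = 0.00408), and *Neurl1b*, a ubiquitin ligase that acts on Notch ligands and is not in the list, from 197 and 165 to 31.9 and 27 CPM (log2 fold change -2.62, SE 0.16, edgeR adjusted p = 2.38e-04). The groups did not overlap in any of these genes, as in all called genes and 53.7% of all tested ones. Of 23 tested Wnt pathway genes 4 were called higher and 1 lower. *Lgr6*, an R-spondin receptor, went from 2.05 and 1.83 to 11.9 and 11.7 CPM (log2 fold change 2.60, SE 0.33, edgeR adjusted p = 0.00248) and *Wnt7b* from 105 and 109 to 233 and 145 CPM (log2 fold change 0.82, SE 0.21, edgeR adjusted p = 0.0425), while the co-receptor *Lrp5* fell from 136 and 129.9 to 79.7 and 65.2 CPM (log2 fold change -0.88, SE 0.19, edgeR adjusted p = 0.0232). Of 15 tested Eph receptors and ephrins 2 were called higher, both ephrin-A ligands, and 3 lower, all receptors. *Efna1* went from 27.1 and 28.3 to 58.9 and 46.2 CPM (log2 fold change 0.92, SE 0.23, edgeR adjusted p = 0.0356) and *Ephb4* from 201 and 180.3 to 109 and 105 CPM (log2 fold change -0.83, SE 0.13, edgeR adjusted p = 0.00657). *Epha2* was not called, with 328 and 358 CPM untreated and 181 and 86 CPM treated. It was called lower in some settings, limma-voom and no filter on low counts among them. Its log2 fold change ran from -2.01 to -0.92 over the settings. With untreated library 1 left out, 0 Notch, 1 Wnt and 0 Eph or ephrin genes were called higher.

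TGF-β is known to arrest epithelial cells in G1. Of 29 tested genes of that programme 3 were called higher and 2 lower. The 3 were the stress sensors *Gadd45a* (7.36 and 10.3 to 32.1 and 50.1 CPM, log2 fold change 2.22, SE 0.35, edgeR adjusted p = 0.00683), *Gadd45b* (20.6 and 18.1 to 68.6 and 61.6 CPM, log2 fold change 1.75, SE 0.18, edgeR adjusted p = 8.90e-04) and *Gadd45g* (16.2 and 11.8 to 33.2 and 26 CPM, log2 fold change 1.08, SE 0.22, edgeR adjusted p = 0.0191). *E2f2*, a transcription factor of S-phase entry, fell from 22.1 and 19.7 to 1.78 and 2.43 CPM (log2 fold change -3.31, SE 0.33, edgeR adjusted p = 8.86e-04) and *E2f8* from 47.9 and 51.4 to 23.6 and 29.3 CPM (log2 fold change -0.91, SE 0.21, edgeR adjusted p = 0.0285). *Ccnd1*, cyclin D1, was at 1157 and 1089 CPM untreated and 1115 and 689 CPM treated, overlapping, and was not called. With untreated library 1 left out, 1 gene was called higher and 1 lower.

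Of 40 tested DNA replication genes 4 were called lower (10%), and of 33 mitosis genes 2 (6.06%), with 0 of either higher, beside 4.47% lower over all genes. *Pold1*, a DNA polymerase δ subunit, fell from 96.5 and 81.8 to 44.8 and 34.2 CPM (log2 fold change -1.17, SE 0.23, edgeR adjusted p = 0.0167), *Uhrf1*, which maintains DNA methylation, from 191 and 178 to 97.6 and 92.4 CPM (log2 fold change -0.96, SE 0.14, edgeR adjusted p = 0.00515), and *Foxm1*, the factor that switches on mitosis genes, from 106 and 92.9 to 51.7 and 54.6 CPM (log2 fold change -0.91, SE 0.16, edgeR adjusted p = 0.00972). *Mcm6* and *Top2a* were not called. Of 67 tested replication-dependent histone genes, 7 were called lower and 0 higher, and 62 had a log2 fold change below 0, with a median of -0.47. Over all genes 6333 of 13028 lay below 0. The median of a list moved with single libraries. For the histone genes it stood at -0.82 without treated library 1 and at -0.29 without untreated library 1. In the fit that lacked untreated library 1, 0 replication and 0 mitosis genes were called. Histone genes in clusters share sequence, so their reads are hard to assign. The paper names an mRNA kit and the labels another kit, and how the libraries captured histone transcripts was not tested.

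Of 25 tested p53 targets 5 were called lower and 0 higher by edgeR, where DESeq2 called 6 lower and 1 higher. *Gadd45a*, called higher above, was not among these 25. *Bbc3*, which encodes the death protein PUMA, fell from 15.2 and 10.4 to 4.31 and 2.01 CPM (log2 fold change -2.0, SE 0.40, edgeR adjusted p = 0.0181) and *Sesn2*, a sestrin, from 43.1 and 34.8 to 11.1 and 12.1 CPM (log2 fold change -1.75, SE 0.20, edgeR adjusted p = 0.00175). Yet another BH3-only death gene, *Bmf*, rose from 99.9 and 82.4 to 302 and 327 CPM (log2 fold change 1.79, SE 0.25, edgeR adjusted p = 0.00344), and these were the only called genes of 23 tested in the BCL2 and caspase list. *Mdm2*, the p53 inhibitor and target, was at 257 and 265 CPM untreated and 277 and 216 CPM treated and was not called. Without untreated library 1, 1 p53 target was called lower.

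Clock genes changed in both directions: of 19 tested, 3 were called higher and 5 lower. *Dbp*, an output factor of the clock, went from 10.4 and 9.28 to 1.5 and 1.06 CPM (log2 fold change -2.92, SE 0.46, edgeR adjusted p = 0.00674), the repressor gene *Nr1d1* from 7.48 and 10.7 to 2.06 and 2.22 CPM (log2 fold change -2.08, SE 0.36, edgeR adjusted p = 0.00977) and *Per1* from 13.8 and 10.1 to 4.4 and 3.7 CPM (log2 fold change -1.55, SE 0.27, edgeR adjusted p = 0.0108). *Bhlhe40*, a repressor of clock genes, rose from 61.2 and 73.6 to 213 and 196 CPM (log2 fold change 1.60, SE 0.20, edgeR adjusted p = 0.00248), and *Nfil3*, which opposes *Dbp* at its sites, from 25.9 and 24.2 to 79 and 65.7 CPM (log2 fold change 1.53, SE 0.21, edgeR adjusted p = 0.00357). In each of them treated and untreated libraries were apart, as in all called genes and 53.7% of all tested ones. With untreated library 1 left out, 2 were called higher and 1 lower.

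Genes of lipid metabolism were spread over lists or stood outside them. *Srebf1*, the master factor of fatty acid synthesis, went from 159 and 131 to 67.2 and 59.8 CPM (log2 fold change -1.19, SE 0.16, edgeR adjusted p = 0.00308), and fatty acid synthase, *Fasn*, from 707 and 457 to 266 and 174 CPM (log2 fold change -1.40, SE 0.27, edgeR adjusted p = 0.0154). The desaturase gene *Scd2* went from 4397 and 3438 to 2147 and 2436 CPM (log2 fold change -0.77, SE 0.20, edgeR adjusted p = 0.0453), and was not called with any of the 4 control libraries left out. *Chka*, choline kinase, the first enzyme of phosphatidylcholine synthesis, fell from 262 and 329 to 113 and 63.3 CPM (log2 fold change -1.74, SE 0.36, edgeR adjusted p = 0.0202) and was the only called gene of 14 tested in that list. Its call was lost without either untreated library and without treated library 2, and that of *Fasn* without untreated library 1. *Plin2*, which coats lipid droplets, rose from 196 and 217 to 594 and 609.8 CPM (log2 fold change 1.55, SE 0.13, edgeR adjusted p = 5.07e-04). Of 26 tested genes of cholesterol synthesis and uptake, 1 was called higher, *Cyp51* (498 and 292 to 941 and 798 CPM, log2 fold change 1.14, SE 0.28, edgeR adjusted p = 0.0366), and 2 lower, *Srebf1* and *Insig2*. *Cyp51* and *Insig2* were not called without either untreated library, nor without treated library 1, where 5 genes of the list were called lower.

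In sugar metabolism the hexokinase genes went in opposite directions, *Hk2* from 66.2 and 49.7 to 231 and 132 CPM (log2 fold change 1.65, SE 0.41, edgeR adjusted p = 0.0377) and *Hk1* from 142 and 131 to 71.8 and 94.6 CPM (log2 fold change -0.72, SE 0.16, edgeR adjusted p = 0.0259). *Pfkfb3*, which speeds glycolysis, rose from 15.6 and 18.2 to 65.1 and 34.2 CPM (log2 fold change 1.56, SE 0.38, edgeR adjusted p = 0.0356). These were the only called genes of 31 tested in the glycolysis and hypoxia list, 2 higher and 1 lower. Of 29 tested ATF4 stress response genes, 3 were called higher and 2 lower by edgeR, where DESeq2 called 6 higher and 6 lower. *Ddit4*, an inhibitor of mTORC1, rose from 49.6 and 35.8 to 189 and 81.8 CPM (log2 fold change 1.67, SE 0.36, edgeR adjusted p = 0.025). *Xbp1*, a factor of the unfolded protein response, rose from 67.4 and 71.3 to 132 and 138 CPM (log2 fold change 0.96, SE 0.17, edgeR adjusted p = 0.0109). In the fit that lacked untreated library 1, 0 genes of either list were called higher.

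Calls among membrane transporters were mostly of lower: of 179 tested solute carriers 17 were called lower (9.5%) and 1 higher, beside 4.47% and 4.69% over all genes. *Slc26a2*, a sulfate transporter, was at 301 and 343 CPM untreated and 110.1 and 122 CPM treated (log2 fold change -1.47, SE 0.16, edgeR adjusted p = 0.00126). *Slc7a6*, an amino acid exchanger, was the member called higher, from 128 and 147 to 312 and 283 CPM (log2 fold change 1.11, SE 0.14, edgeR adjusted p = 0.00231). *Slc17a9*, a nucleotide transporter of vesicles, had 19 and 11 counts untreated and 0 in both treated libraries, at least 6.07-fold lower (edgeR adjusted p = 0.0108). Members called lower went from 2 without untreated library 1 to 26 without treated library 1. Of 36 tested proteasome subunits 5 were called higher and 0 lower, with a median log2 fold change of 0.36, and 30 lay above 0, beside 51.4% of all tested genes. *Psma2* went from 196 and 179 to 295 and 301 CPM (log2 fold change 0.67, SE 0.13, edgeR adjusted p = 0.0146). Proteasome subunits called higher went from 0 without untreated library 1 to 9 without treated library 1. Histone-modifying enzymes were called in both directions, with 4 of 64 tested called higher and 5 lower, among them the demethylase gene *Jmjd1c* (159 and 205 to 418 and 486 CPM, log2 fold change 1.31, SE 0.16, edgeR adjusted p = 0.00227) and the H3K4 methyltransferase gene *Mll2* (152 and 154 to 84.2 and 43.5 CPM, log2 fold change -1.26, SE 0.30, edgeR adjusted p = 0.0339). These shares, 6.25% and 7.81%, became 1 gene higher and 0 lower without either untreated library, where *Mll2* was not called.

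The shares of calls in the next groups stand beside 4.69% higher and 4.47% lower over all genes. Of 78 tested cytosolic ribosomal protein genes 5 were called higher and 1 lower, with a median log2 fold change of 0.22 and 62 above 0, beside 51.4% of all tested genes. Of 78 respiratory chain subunits 2 were called higher and 0 lower. Without untreated library 1, 0 genes of either group were called. Of 74 ribosome biogenesis genes 1 was called higher and 2 lower, among them nucleolin, *Ncl* (623 and 592 to 337 and 357 CPM, log2 fold change -0.81, SE 0.14, edgeR adjusted p = 0.00874), and of 21 aminoacyl-tRNA synthetases 0 and 1. Small nucleolar and Cajal-body RNAs had 3 of 42 called higher and 0 lower, heat-shock chaperones 2 of 19 and 0, with *Hspa8* going from 292 and 343 to 482 and 471 CPM (log2 fold change 0.59, SE 0.15, edgeR adjusted p = 0.041). *Hspa8* was not called with any of the 4 control libraries left out, and without either untreated library 0 chaperones were. Among 25 mRNA decay regulators 2 were called higher and 1 lower, *Zfp36*, which encodes tristetraprolin (15.7 and 15.9 to 6.37 and 5.61 CPM, log2 fold change -1.39, SE 0.26, edgeR adjusted p = 0.0144). Antioxidant targets of NRF2 had 0 of 23 called higher and 1 lower, *Keap1*, the NRF2 inhibitor (79.4 and 64.8 to 49.1 and 29.5 CPM, log2 fold change -0.87, SE 0.23, edgeR adjusted p = 0.048). Of 24 Ets, Sox, Runx and Gata factors 5 were called higher (20.8%) and 0 lower, with 1 called higher without untreated library 1. Of 292 zinc-finger genes with a Zfp symbol 8 and 13 were called, and 0 and 0 without untreated library 1. Neither of the 2 tested genes of the Hox clusters was called.

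Other large changes were in genes outside these lists. *Lmcd1*, a LIM-domain co-regulator, had the smallest p of all tested genes, at 4.22 and 3.54 CPM untreated and 75.8 and 65.4 CPM treated, a log2 fold change of 4.18 (SE 0.21, edgeR adjusted p = 4.89e-05). *Olr1*, a scavenger receptor for oxidised lipoprotein, had 1 and 7 counts untreated and 400 and 171 treated (log2 fold change 5.80, SE 0.77, edgeR adjusted p = 0.00306). *Cdh6*, K-cadherin, rose from 165 and 202 to 629.5 and 700.3 CPM (log2 fold change 1.86, SE 0.15, edgeR adjusted p = 5.07e-04), and *Dyrk3*, a kinase, from 18.6 and 18.4 to 78.7 and 79.7 CPM (log2 fold change 2.10, SE 0.15, edgeR adjusted p = 4.16e-04). *Niacr1*, the niacin receptor, had 0 untreated counts and 149 and 29 treated (edgeR adjusted p = 0.0295), with treated library 1 far the higher. It was not called without either untreated library, without treated library 1 or with limma-voom. *2310007B03Rik* went from 53.2 and 51.9 to 529.5 and 341 CPM (log2 fold change 3.05, SE 0.24, edgeR adjusted p = 4.16e-04).

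Among genes that fell, *Wnk4*, a kinase that regulates ion transport, went from 23.8 and 21.7 to 2.34 and 2.33 CPM (log2 fold change -3.28, SE 0.24, edgeR adjusted p = 4.16e-04), and *Tenc1*, a tensin of focal adhesions, from 95.2 and 85.9 to 17.4 and 21.8 CPM (log2 fold change -2.21, SE 0.17, edgeR adjusted p = 4.16e-04). *Tnxb*, tenascin-X, fell from 73.7 and 54.3 to 13.4 and 11.3 CPM (log2 fold change -2.37, SE 0.24, edgeR adjusted p = 9.33e-04) and *Bcl9l*, a co-activator of β-catenin, from 59.7 and 54.9 to 14.5 and 18.1 CPM (log2 fold change -1.81, SE 0.18, edgeR adjusted p = 8.86e-04). *Trim71* had 18 and 25 counts untreated and 0 in both treated libraries, at least 8.72-fold lower (edgeR adjusted p = 0.0206). *Neat1*, the noncoding scaffold of paraspeckles, was at 1718 and 1963 CPM untreated and 384 and 415 CPM treated, a log2 fold change of -2.20 (SE 0.20, edgeR adjusted p = 5.24e-04). *7SK*, the RNA that holds the elongation kinase P-TEFb inactive, went from 9624 and 12338 to 18079 and 21079 CPM (log2 fold change 0.83, SE 0.15, edgeR adjusted p = 0.0113; call lost without untreated library 1 and with the 4 control libraries only), and *Aff4*, a scaffold of the super elongation complex that uses this kinase, from 586 and 705 to 1388 and 1387 CPM (log2 fold change 1.10, SE 0.13, edgeR adjusted p = 0.00207). The paper names an mRNA kit and the labels another kit, and how the libraries captured *7SK* was not tested. At the study's own locus, *Gm13507* had 3 and 14 counts untreated and 25 and 35 treated and was not called. Its log2 fold change was above 0 in each of the 14 settings, from 0.81 to 3.01. Its antisense host *Nr6a1* was at 18.1 and 20.1 CPM untreated and 8.62 and 7.62 CPM treated (log2 fold change -1.23, SE 0.20, edgeR adjusted p = 0.00734), a call lost without either untreated library. The paper reports early induction of the *Gm13507* isoforms by TGF-β, with *Nr6a1* hardly affected. The counts of this overlapping pair are uncertain because nothing states whether reads were counted by strand.

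**Figure D4:**
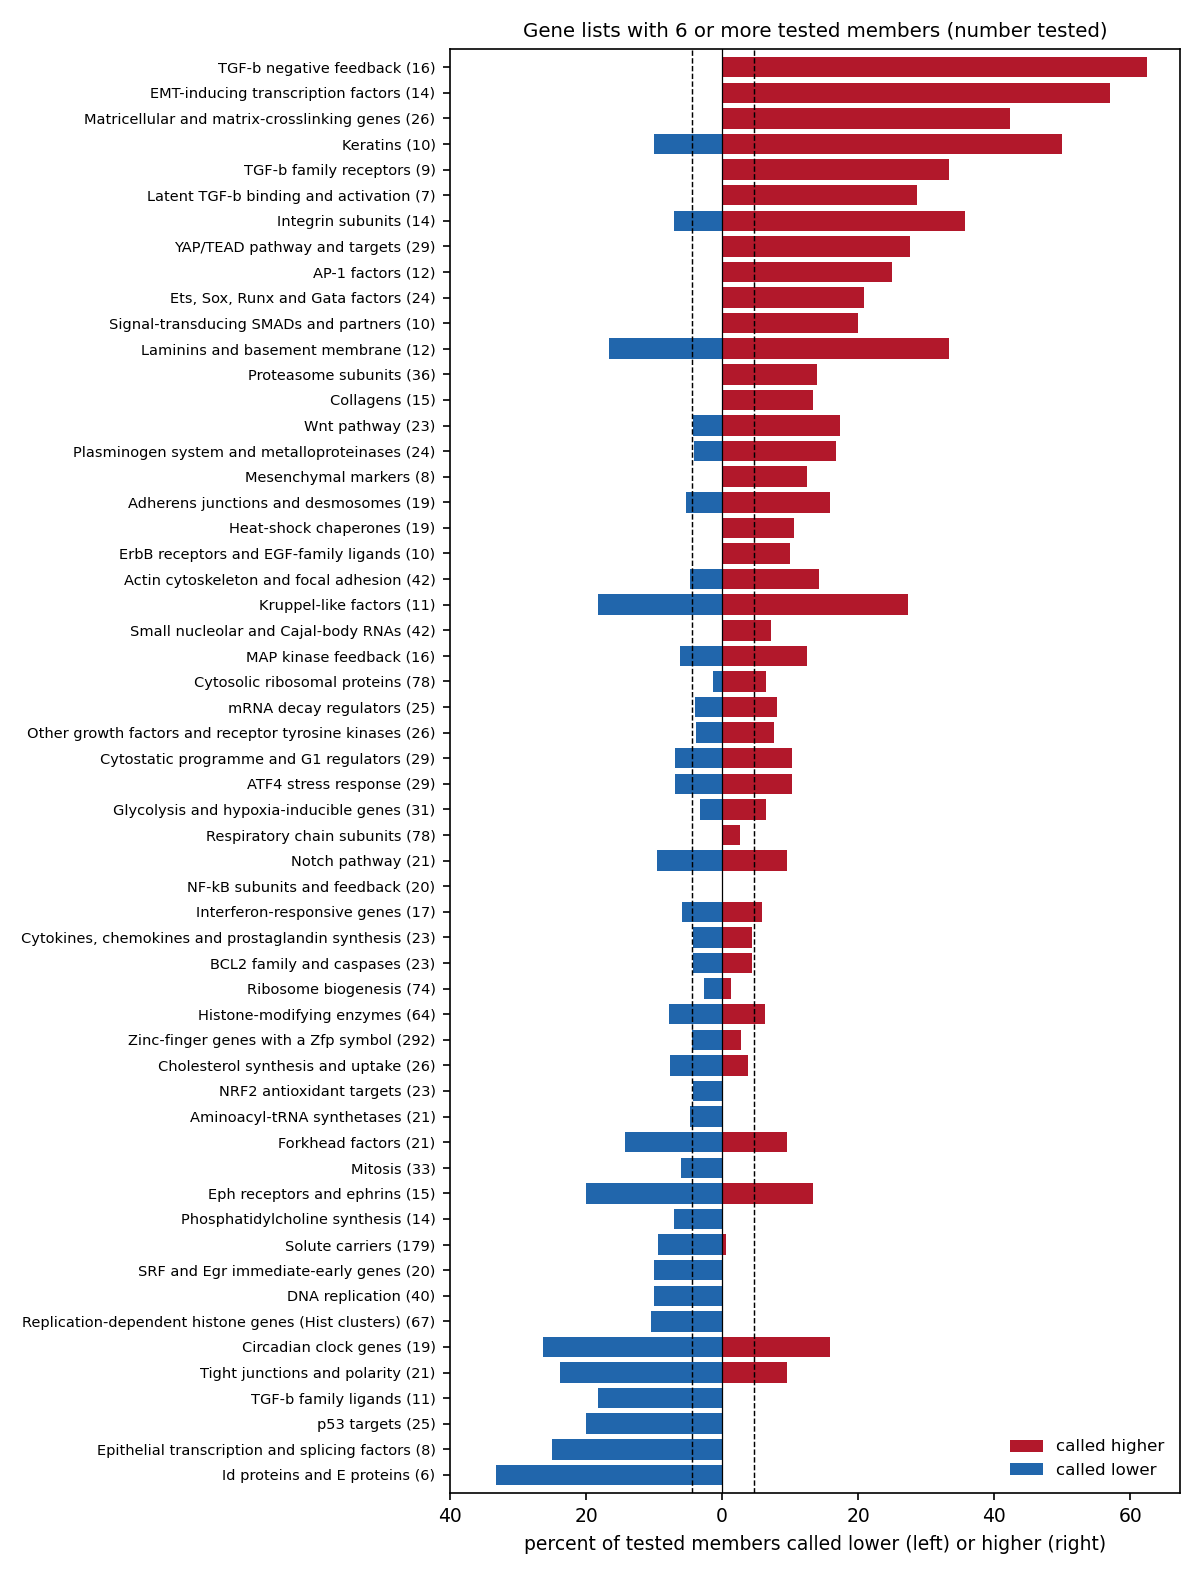
Percent of the tested members of each gene list called higher (red, right) or lower (blue, left) after TGF-β 2 h, with the number tested in brackets and dashed lines at the 4.69% and 4.47% of all tested genes, for lists with 6 or more tested members. Feedback genes of TGF-β signalling (10 of 16 higher) head the lists, and Id and E proteins (2 of 6 lower) end them.

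Promoters were read from the RefSeq windows of build GRCm38.p6, 250 bases before to 50 after a gene's start, on both strands. They matched 425 of the 611 genes called higher and 447 of the 583 called lower, which is under 80%, so a statement about the called genes as a whole is void and the shares describe the matched promoters. An AP-1 site, TGACTCA or TGAGTCA, was in 7.61% of 578 promoters of genes called higher, 2.64% of 568 of genes called lower, 3.97% of 11689 of all tested genes and 5.2% of all 32851 in the table. The CAGA box (CAGACA), which SMAD3 and SMAD4 bind, was in 19.2%, 16.2%, 15.7% and 21% of the same sets. The E-box CACGTG, which clock factors bind, was in 7.44%, 12.7%, 10.1% and 7.15%. The TEAD site GGAATG was in 14.2%, 12.3%, 12.3% and 14.7%, and the CArG box of the serum response element in 2.08%, 1.06%, 1.34% and 1.63%. A match is a run of letters and not a bound site.

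A selection of the stretches with these letters in promoters of genes described above is given, to be read beside the values. Each runs 5′ to 3′ on the gene's strand, in GRCm38.p6, with the motif in capitals. The AP-1 letters stand before the start of *Tnfaip6* (chr2:52037951-52037997, plus strand), *F3* (chr3:121723382-121723428, plus strand), *Olr1* (chr6:129507199-129507245, minus strand), *Zeb2* (chr2:45110383-45110486, minus strand), *Cald1* (chr6:34709227-34709273, plus strand) and *F11r* (chr1:171437432-171437478, plus strand).
Tnfaip6: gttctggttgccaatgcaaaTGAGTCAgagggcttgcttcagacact
F3: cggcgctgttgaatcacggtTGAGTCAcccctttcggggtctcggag
Olr1: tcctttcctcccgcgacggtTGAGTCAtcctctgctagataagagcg
Zeb2: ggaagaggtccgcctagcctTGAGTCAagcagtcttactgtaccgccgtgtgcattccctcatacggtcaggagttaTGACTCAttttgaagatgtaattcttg
Cald1: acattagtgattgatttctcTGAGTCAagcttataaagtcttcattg
F11r: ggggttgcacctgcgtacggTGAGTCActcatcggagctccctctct
The stretches were picked from genes called higher, and the same letters also lie in promoters of *Tnxb*, called lower, and of *Tnfaip3*, *Plaur* and *Cldn4*, not called. *Zeb2*, an EMT factor and repressor of E-cadherin, carries the letters in 2 places and went from 27.4 and 26.9 to 60.3 and 51.7 CPM (log2 fold change 1.05, SE 0.17, edgeR adjusted p = 0.00778).

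CAGA letters, read on either strand (CAGACA or TGTCTG), stand before *Tgfbr1* (chr4:47385993-47386038, plus strand), *Itga2* (chr13:114932222-114932267, minus strand) and *Krt14* (chr11:100206061-100206106, minus strand). The TEAD letters, here as CATTCC, stand before *Cyr61*, listed as Ccn1 (chr3:145650063-145650108, minus strand), and CArG boxes before *Itgb6* (chr2:60673714-60673763, minus strand) and *Lmcd1* (chr6:112273523-112273572, plus strand).
Tgfbr1: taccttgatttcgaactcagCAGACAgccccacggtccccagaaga
Itga2: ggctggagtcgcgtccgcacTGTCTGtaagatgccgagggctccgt
Krt14: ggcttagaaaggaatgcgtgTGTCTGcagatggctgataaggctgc
Cyr61: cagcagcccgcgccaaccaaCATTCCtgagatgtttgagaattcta
Itgb6: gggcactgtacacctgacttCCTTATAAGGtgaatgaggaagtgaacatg
Lmcd1: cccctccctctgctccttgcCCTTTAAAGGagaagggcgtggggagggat
Shown are the genes' own promoters, chosen after their expression values were seen, and the letters were not tested for function. These stretches too were picked from genes called higher. Among genes called lower, *Klf3* and *Tenc1* have CAGA letters, *Notch1* and *Irs1* TEAD letters and *Zfp36* a CArG box. Where the table holds several starts of a gene, 1 carries the letters shown: 1 of 2 for *Tgfbr1*, *Itgb6* and *Cald1*, and 1 of 4 for *Zeb2*.

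The response of control cells was set beside that of the libraries labelled knockout by the interaction in the same edgeR fit. At an adjusted p below 0.05, 0 genes (0%) differed by edgeR, with 1134 at an unadjusted p below 0.05, 0 by limma-voom and 25 by DESeq2. Without treated library 1 of control cells edgeR called 4, and without treated library 2, 6. The smallest p were those of *Scamp3*, *Gm15487* and *Txn2*, each called lower in control cells and not in the other libraries. *Scamp3*, a carrier membrane protein gene, had a log2 fold change of -1.60 in control cells, against 0.49 in those labelled knockout (edgeR adjusted p = 0.0615 of the interaction). *Txn2*, mitochondrial thioredoxin, had -1.24 and 0.46 (edgeR adjusted p = 0.0615 of the interaction). The targeted gene itself does not separate the labels before treatment: untreated counts of *Gm13507* were 3 and 14 for control cells and 11 and 7 under the knockout label, where both treated libraries had 0. Among genes that the study names as lost in knockout cells, *Dsg2*, *Fam111a* and *Mal2* follow the labels. They were looked up after values had been seen and were picked in part from these same libraries. Reads of *Dsg2*, a desmosomal cadherin, numbered 76 and 87 in untreated and 74 and 102 in treated control libraries. For *Fam111a* these numbers were 122, 139, 188 and 187, and for *Mal2* 52, 67, 118 and 99. All 4 libraries labelled knockout had 0 counts of each of these 3 genes. *Foxf1a*, the FoxF1 gene that the study also names as lost, had 26 and 17 counts in untreated control libraries. It had 12 and 2 counts in treated control libraries, and 1, 0, 0 and 0 under the knockout label. Whether untreated libraries were exchanged between control and knockout was not tested, and the fold changes above take the labels as given. Among genes reported as gained, the separation was partial. Untreated values were 19.4 and 19.9 CPM in control libraries and 45.4 and 43.5 under the knockout label for *Pkp1*, 54.3 and 58.1 against 110 and 134 for *Lphn3* (Adgrl3), and 55.5 and 47.2 against 52.5 and 39.1 for *Prune*. Key genes of the response had like-signed values in both: *Snai1* 4.23 and 3.99, and *Notch1* -2.08 and -1.54 on the log2 scale, which shows no equality of the responses.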

How the data were processed

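RNA from control and *Gm13507*-edited NMuMG cells was sequenced, 2 libraries per group over 4 groups. The deposited table holds raw counts per gene that the authors made; the paper gives subjunc alignment with duplicate removal, the labels HISAT2, and neither states the counting tool or its strand setting. Both name stranded kits, but the kit and sequencer differ between paper and labels. Totals per library ranged from 4297832 to 13574397 counts.

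From these counts, edgeR 4.0.16 in R 4.3.3 was fitted to all 8 libraries (TMM factors, filterByExpr, quasi-likelihood test, common biological coefficient of variation 0.180, 4 residual and 5.50 prior degrees of freedom, no block), with Benjamini-Hochberg adjustment over 13028 genes. Calls needed an adjusted p under 0.05 together with a log2 fold change beyond 0.5 in size, and for the interaction the adjusted p alone. The code was tested on simulated data.

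Genes open to naming were set by rule: per list up to 6 called in each direction by fold change and the 3 most abundant uncalled, and over all genes the 12 largest folds, 12 smallest p and 10 largest CPM changes in each direction, the first 5 of the interaction, the markers and the locus. The text names a selection of these, made without a further rule. Members and lists were chosen with earlier results of these data known. Alternatives were DESeq2 1.42.0, limma-voom 3.58.1, RLE factors, other filters, a replicate block, the 4 control libraries alone, thinned counts, calls by adjusted p alone, and fits that lacked 1 library each.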

Additional observations from a re-analysis of the deposited data

How the results depend on the processing

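No called gene changed sign in any setting, which groups lying wholly apart made nearly certain beforehand. With 2 libraries per group the number of calls depends on each library, and the causes of the differences were not tested. Genes called higher numbered 611, and 1019 with no filter on low counts, 276 with the 4 control libraries only, 1188 with those and the replicate block, and 87 to 658 with libraries left out one at a time. Genes called lower numbered 583, and 1002, 194, 1280 and 58 to 826 in the same settings. With DESeq2 738 and 736 genes were called, with limma-voom 557 and 527, with RLE factors 594 and 598, with a mean of at least 10 counts 603 and 592, with thinned counts 537 and 494 and by adjusted p alone 618 and 585. With the replicate block in the fit of 8 libraries 439 and 392 were called, and 20 of the 154 named calls were lost: *Cgn*, *Efna1*, *Foxk1*, *Hk2*, *Hmga2*, *Id1*, *Insig2*, *Krt8*, *Lama5*, *Lamb2*, *Mll2*, *Mmp15*, *Mx2*, *Nab2*, *Niacr1*, *Pdlim7*, *Pfkfb3*, *Smad3*, *Tpm1* and *Wnt7b*. Same-numbered untreated and treated control libraries shared deviations with r = 0.297 over 13028 genes and 2 pairs, and the labels state no pairing. The interaction had 0 calls, 25 with DESeq2, 211 with no filter and 0 to 6 with libraries left out.

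Uncalled genes changed sign with libraries left out. Their log2 fold changes, lowest to highest, were -0.0400 to 0.55 for *Actb*, -0.15 to 0.32 for *Cdh1*, -1.33 to 0.43 for *Dusp6*, -1.46 to 0.85 for *Fosl1*, -0.29 to 0.0866 for *Mdm2*, -0.56 to 0.0414 for *Tgfb1* and -0.22 to 0.175 for *Timp2*. With limma-voom *Fosl1* was at -0.27. A lone library in a group is assumed to vary like the other groups.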

Other observations

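Called genes were also described by their structure. The median genomic span was 18620 bp over all tested genes, 28407 bp among genes called higher and 21313 bp among those called lower, and median exonic lengths were 3338, 3583 and 4709 bp. Pseudogenes made up 7.41% of tested genes, 5.4% of those called higher and 2.4% of those called lower. By chromosome, the share called higher ran from 2.33% (X) to 8.33% (18) and the share called lower from 1.48% (X) to 7.31% (17). These shares were not tested.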
